A study of Mus musculus with 6 samples.

Results

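Pericytes and vascular smooth muscle cells, together called mural cells, wrap the outside of blood vessels. Smooth muscle cells carry a contractile apparatus of actin, myosin and their binding proteins, and pericytes are commonly recognised by the PDGF receptor beta, the signalling regulator Rgs5 and the proteoglycan NG2. In tumors, mural cells are recruited to growing vessels largely through endothelial PDGF-B acting on PDGF receptor beta, and several contractile genes are also expressed by activated fibroblasts. The genes described here are 10 such genes, taken by the gene name printed in the array files: Acta2, Tagln, Myh11, Cnn1, Myl9, Actg2, Des, Pdgfrb, Rgs5 and Cspg4. They had 18 probes (36 spots) among the 41174 probes and 27573 gene names of the array, and 15 of the 18 probes were bright enough to be tested.

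The samples were 6 tumors grown from Hepa1-6, a mouse hepatoma line, injected under the skin of female C57Bl/6 mice that were otherwise untreated as far as the labels say. A group of 3 tumors, numbered 302, 307 and 312, was taken 10 days after inoculation. Another 3, numbered 303, 313 and 318, were taken at 15 days. Each tumor's RNA was labelled with the red dye Cy5 and shared an array with a reference labelled with the green dye Cy3, total RNA from the blood of an untreated female C57Bl/6 mouse. Dyes were never swapped, all day 10 arrays lay on 1 slide and all day 15 arrays on another, so that day and slide cannot be told apart. The tumors hold the graft together with vessels, stroma and whatever host tissue was cut out with them, and the mouse of each is not named in the labels. A p-value therefore measures only the spread among these 6 samples, which may be technical. In such bulk RNA, more cells of a type and more RNA per cell cannot be told apart.

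Values are log2 ratios of tumor over reference after background correction and loess normalization within each array, and each gene is represented by its brightest tested probe unless another is named. The share of spots well above background ranged over the arrays from 51.4% to 57.3% in Cy5 and from 46.4% to 51.7% in Cy3. On the array of day 10 tumor 312 an area of 6804 spots (15.1%) had lost signal, and it covered 2 of the 10 spots of an Acta2 probe and 1 of the 10 spots of the Des probe. No spot of the 18 probes was saturated.

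The contractile genes are among the classic targets of serum response factor and its coactivator myocardin, which act through a short A/T-rich element called the CArG box. Of the 10 genes, 6 had an entry in the RefSeq promoter table (GRCm38.p6). CArG boxes were searched from 250 bases before to 50 bases after the start site. The form searched is its own reverse complement, so both strands were covered. The promoters of Myl9 and Acta2 are shown because only these, among the 6, held a match. The stretches are the 250 bases before the start site, with matches in capitals, Myl9 at chr2:156775214-156775463 on the plus strand and Acta2 at chr19:34255374-34255623 on the minus strand.
Myl9: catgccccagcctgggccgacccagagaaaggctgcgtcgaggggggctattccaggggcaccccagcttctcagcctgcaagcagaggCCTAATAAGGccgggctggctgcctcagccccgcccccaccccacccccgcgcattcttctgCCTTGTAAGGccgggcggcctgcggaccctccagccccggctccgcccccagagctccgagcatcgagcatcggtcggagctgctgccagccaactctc
Acta2: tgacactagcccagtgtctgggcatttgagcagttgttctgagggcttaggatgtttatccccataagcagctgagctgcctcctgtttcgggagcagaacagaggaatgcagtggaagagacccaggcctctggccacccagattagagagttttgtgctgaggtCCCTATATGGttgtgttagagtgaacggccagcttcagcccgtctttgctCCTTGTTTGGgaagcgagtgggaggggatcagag
Myl9 held a strict CArG box from 161 to 152 bases before its start, CCTAATAAGG, and a variant with a single G or C among the 6 inner bases, CCTTGTAAGG, from 99 to 90. Acta2 held the variants CCCTATATGG, from 84 to 75 bases before the start, and CCTTGTTTGG, from 34 to 25, and no strict box. A strict box lay in 1.63% of all 32851 promoters in the table and a variant in 8.5%. In the entries of Cnn1, Des, Rgs5 and Cspg4 neither form was among the letters of this window.

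Against the blood reference, all 10 genes had a mean ratio above 0 and 8 of 10 were called higher (limma, Benjamini-Hochberg adjusted p under 0.05 and a log2 ratio of at least 1). Over all 16320 genes tested, 25.5% were called higher and 9.77% lower. By probe, 13 of the 15 tested were called higher, beside 22.1% of all probes. The median log2 ratio of the 10 genes was 2.42, beside 0.22 for all genes. The share of higher genes among all calls was 72.3% and depended on the scaling: it was 58.0% with the scanner's own log ratios and 41.3% after median centring without loess. The count of 8 members was the same under both of these scalings. The 2 genes not called were Actg2 and, by its brightest probe, Acta2, and both of these small positive ratios turned negative after median centring.

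Pdgfrb, the receptor that draws pericytes to endothelial PDGF-B, had the highest ratio. It stood at 6.28, 5.77 and 5.64 in day 10 tumors 302, 307 and 312 and at 6.36, 6.98 and 6.46 in day 15 tumors 303, 313 and 318, a mean of 6.25 or 76.0-fold over the reference (limma, adjusted p = 1.9e-07). Tumor 313 was highest, and all day 15 values of this loess ratio lay above all day 10 values. Myl9, a regulatory light chain of smooth muscle and non-muscle myosin, followed with a mean of 5.06, or 33.4-fold (limma, adjusted p = 1.48e-07). Platelets in blood are also known to contain Myl9, and the reference signal of this probe was well above background on 6 of the 6 arrays.

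Tagln, which encodes the actin-binding protein transgelin (SM22-alpha), averaged 3.76 over the reference, and Rgs5, a regulator of G-protein signalling used as a pericyte marker, averaged 3.35. Cspg4, which encodes NG2, gave no reference signal well above background with any of its 3 probes. Its brightest probe was at least 6.91-fold higher in the tumors, a bound formed from the signals of the separate dyes and open to dye bias without swapped arrays (limma on the log2 ratio, adjusted p = 1.74e-05). Des, the intermediate filament protein of muscle and of many pericytes, averaged 1.74, and Myh11, the smooth muscle myosin heavy chain, 1.69. Reference signal was above background for Des on 2 arrays and for Myh11 on 2, so the size of these ratios is less secure. Cnn1, the smooth muscle calponin, averaged 1.15 and rested on tumor 303: without it the mean was 0.65, under the threshold, and the call was also lost without any one of tumors 302, 307, 312 and 313 and when dim probes were kept in the test.

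**Figure D1:**
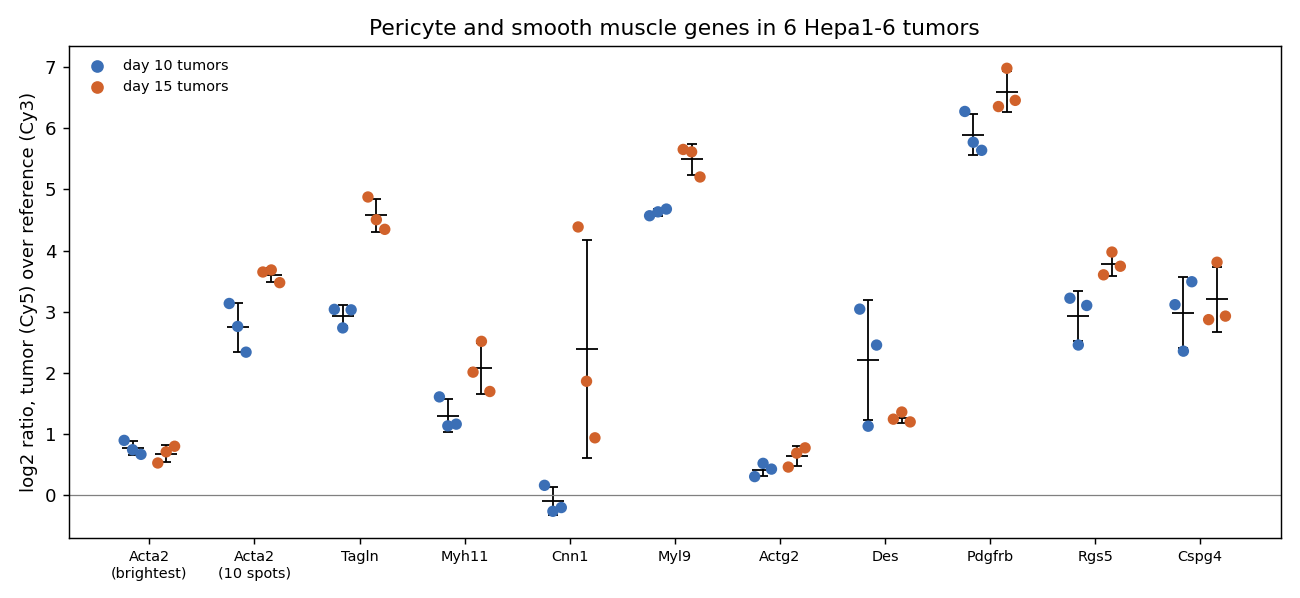
Log2 ratio of tumor (Cy5) over blood reference (Cy3) for each of the 10 genes, with Acta2 shown by its brightest probe and by the probe printed 10 times. Points are single tumors (blue, day 10; orange, day 15) and bars give the mean and SD of 3 tumors; Pdgfrb is highest at 5.64 to 6.98, Actg2 lies between 0.30 and 0.77, and Des is spread widely at day 10 only.

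Between the days, 8 of the 10 genes had a higher mean at day 15 and none passed the adjusted threshold (limma, Benjamini-Hochberg over all probes; smallest adjusted p among them 0.116). Of all 15804 genes tested, 0.0569% were called in either direction and 55% had a higher mean at day 15. At an unadjusted p under 0.05, 6 of the 10 genes were higher and 0 lower, where 2.44% and 1.58% of all genes were. The 3 values of day 15 all lay above the 3 of day 10 for 6 of the 10, which held for 5.06% of all genes. Cnn1, in both sets of 6, entered the test through day 15. It was above background in Cy5 on 3 arrays there and on 1 at day 10. By probe, 0 of 15 were called (0.0434% of all probes), 10 of 15 were higher and 0 lower at an unadjusted p under 0.05 (2.2% and 1.34%), and 10 of 15 had day 15 values all above day 10 (4.91%). The median difference of the 10 genes was 0.74, beside 0.02 for all genes. Median centring without loess lowered it to 0.21 and moved the median of all genes to -0.30, and at an unadjusted p under 0.05 there were then 3 higher genes (Tagln, Cnn1 and Myl9) and 2 lower ones (Acta2 and Des). Tagln, Myl9 and Rgs5 were the 3 higher genes without tumor 307, where Des was lower, and the 3 without tumor 312, where no gene was lower.

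Among the contractile genes, Tagln differed most clearly. Its ratio was 3.04, 2.74 and 3.03 in the day 10 tumors and 4.88, 4.51 and 4.35 in the day 15 tumors. The groups lay apart by more than 1 log2 unit, and the difference of 1.64 ± 0.19 (SE), or 3.12-fold, had an unadjusted p of 8.54e-05 and an adjusted p of 0.116 in limma. Over all alternatives tried the difference stayed between 1.17 and 1.76, with adjusted p from 0.0861 to 1. A second Tagln probe read 1.799, 1.446 and 2.028 at day 10 and 3.407, 2.996 and 3.387 at day 15. Its difference was 1.51 ± 0.21 (SE; limma, adjusted p = 0.22) but 0.32 with the scanner's log ratio. The reference channel of that second probe was above background only on the arrays of tumors 303 and 318.

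The Myl9 ratio was 4.57, 4.63 and 4.68 at day 10 and 5.65, 5.62 and 5.20 at day 15. Day 10 values lay close together and below every day 15 value, and the difference was 0.86 ± 0.17 (SE; limma, unadjusted p = 0.00168, adjusted p = 0.552). Myh11 was 1.61, 1.13 and 1.16 at day 10 and 2.01, 2.52 and 1.70 at day 15. These groups did not overlap but came close, and the difference of 0.77 ± 0.25 (SE; limma, unadjusted p = 0.0204) turned to -0.26 with the scanner's log ratio. Actg2, the enteric smooth muscle actin, differed by 0.22 ± 0.15 (SE; limma, unadjusted p = 0.184), and this became -0.12 after median centring and -0.07 in the tumor channel alone.

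Cnn1 varied most of the 10 over the tumors, with an SD of 1.78. It read 0.16, -0.26 and -0.20 at day 10, where only tumor 312 was above background in Cy5, and 4.39, 1.86 and 0.94 at day 15. The probe entered the test only through the day 15 arrays, where 3 were above background. In the ratio all day 15 tumors were higher, tumor 303 by far the most, and the difference was 2.50 ± 0.83 (SE; limma, unadjusted p = 0.021, adjusted p = 1). Without tumor 303 it was 1.50. In the tumor channel alone the groups overlapped, with 8.29 in day 10 tumor 312 and 8.14 in day 15 tumor 318. The difference there was 2.18 ± 0.93 (SE; limma, unadjusted p = 0.0538). The reference signal was 8.62 on the array of tumor 312 and 6.55 to 7.88 on the others.

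The 5 Acta2 probes gave different readings of this gene, the smooth muscle alpha-actin. The brightest read 0.90, 0.74 and 0.67 at day 10 and 0.53, 0.71 and 0.80 at day 15, overlapping groups with a difference of -0.09 ± 0.15 (SE; limma, unadjusted p = 0.558). After median centring, which moved the median of all genes to -0.30, it read 0.15, -0.04 and -0.15 at day 10 against -0.58, -0.47 and -0.36 at day 15. Those groups did not overlap, and the difference was -0.46 (limma, unadjusted p = 0.0176, adjusted p = 0.2). The probe printed 10 times read 3.14, 2.76 and 2.34 at day 10 and 3.65, 3.68 and 3.48 at day 15. All of its day 15 values were higher, by 0.86 ± 0.22 on average (SE; limma, unadjusted p = 0.00733, adjusted p = 0.945). The low value of tumor 312 came with an SD of 1.29 over its spots, against 0.05 to 0.14 on the other arrays. With the lost area left out tumor 312 read 2.95 and the difference was 0.65 (limma, unadjusted p = 0.00443, adjusted p = 0.729).

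Another Acta2 probe, whose reference signal was above background on 0 arrays, read 1.72, 1.15 and 1.82 at day 10 and 3.34, 1.90 and 2.64 at day 15, a difference of 1.07 ± 0.38 (SE; limma, unadjusted p = 0.0298). The remaining probes were above background in the tumor channel on 1 and 0 arrays and were not tested. Against the reference the brightest probe averaged 0.72 and the probe printed 10 times 3.17. Actin genes are close to identical in their coding sequence and the array files give no probe sequence, so which actin transcripts each probe binds was not tested. The brightest probe gave a similar log2 signal in both dyes, 13.8 to 14.2 in tumor and 14.1 to 14.4 in the blood reference after quantile normalization.

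Of the pericyte genes, Pdgfrb differed by 0.70 ± 0.25 between the days (SE; limma, unadjusted p = 0.027, adjusted p = 1). Its groups overlapped in the tumor channel alone, with a difference of 0.77 (limma, unadjusted p = 0.108). They also overlapped after median centring, with a difference of 0.29 (limma, unadjusted p = 0.224). Rgs5 read 3.22, 2.46 and 3.10 at day 10 and 3.60, 3.98 and 3.74 at day 15. In this ratio every day 15 tumor was higher, tumor 307 was lowest, and the difference was 0.85 ± 0.24 (SE; limma, unadjusted p = 0.0105). In the tumor channel alone day 10 tumor 312, at 10.88, lay above day 15 tumors 303 (10.43) and 318 (10.79). The Rgs5 difference there was 0.63 (limma, unadjusted p = 0.17). The ratio of the second Rgs5 probe differed by 0.86 ± 0.31 (SE; limma, unadjusted p = 0.0291). Cspg4 read 3.12, 2.36 and 3.49 at day 10 and 2.87, 3.81 and 2.93 at day 15. These groups overlapped, and the difference of 0.22 ± 0.37 (SE; limma, unadjusted p = 0.584) changed sign after median centring, in the tumor channel alone and without tumor 307 or 313. A second Cspg4 probe differed by 0.09 ± 0.23 (SE; limma, unadjusted p = 0.721), and the last was above background on no array.

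**Figure D2:**
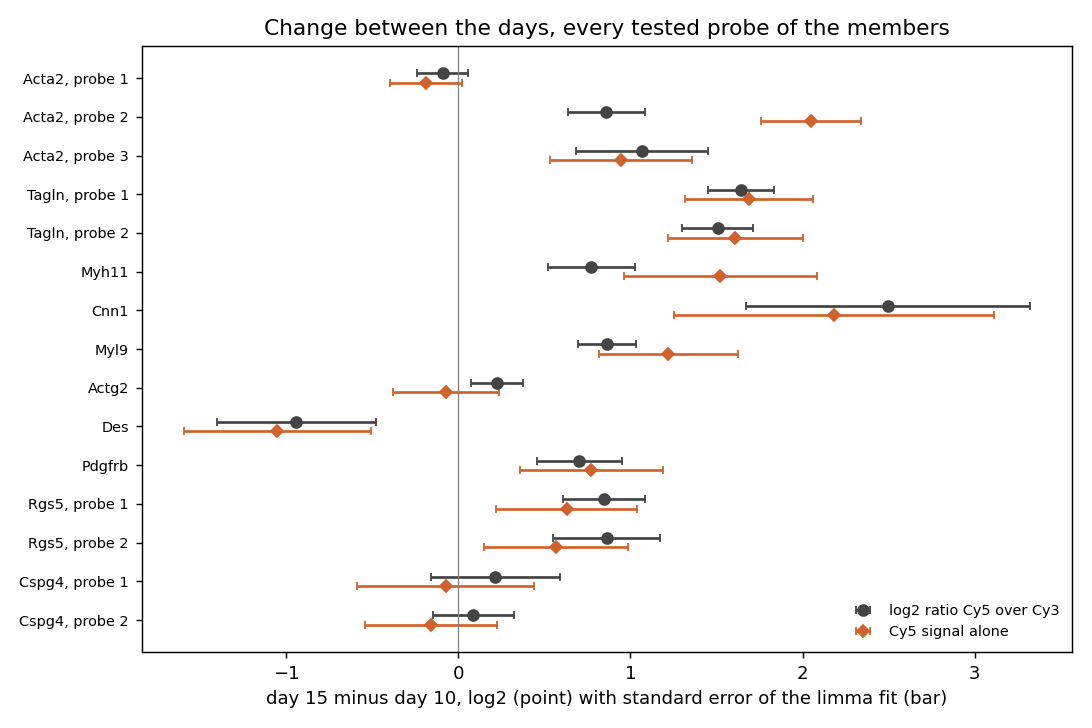
Difference between day 15 and day 10 for each of the 15 tested probes, as the log2 ratio (grey circles) and as Cy5 signal alone (orange diamonds), with the standard error of the limma fit. In the ratio, 13 of 15 probes lie above 0, and 10 of 15 had an unadjusted p under 0.05, beside 2.2% of all probes; Des and the brightest Acta2 probe lie below 0.

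Because the ratio mixes both dyes, each dye was also compared by itself after quantile normalization. In the tumor channel alone, 6 of 10 genes were higher at day 15 and 0 were called (limma; 0% of all genes). At an unadjusted p under 0.05, 3 were higher, Tagln, Myh11 and Myl9, and 0 lower, beside 0.93% and 2.03% of all genes. Tagln signal was 11.13, 11.27 and 12.33 at day 10 and 13.53, 12.95 and 13.32 at day 15, and Myl9 signal was 11.48, 11.63 and 12.45 at day 10 and 13.67, 13.10 and 12.46 at day 15. Both were higher in every day 15 tumor, Myl9 by a bare margin between tumors 318 and 312.

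In the reference channel, 0 of the 7 genes bright enough to be tested were called, and 0 had an unadjusted p under 0.05 (limma; of all genes, 0.165% were higher and 1.38% lower at that p). Among the probes bright enough to be tested in Cy3, the Acta2 probe printed 10 times was an exception. Its reference signal was 8.89, 8.21 and 8.85 on the day 10 arrays and 10.19, 9.80 and 10.09 on the day 15 arrays. Every day 15 array was higher, by 1.38 ± 0.23 (SE; limma, unadjusted p = 0.00113, adjusted p = 0.594), although the reference carries the same description throughout. Of all probes, 0.177% were higher in the reference at an unadjusted p under 0.05. The tumor signal of the same probe differed by 2.05 ± 0.29 (SE; limma, adjusted p = 0.574). Myh11, too dim to be tested in Cy3, read 6.77, 6.44 and 6.94 in the reference at day 10 and 9.43, 7.36 and 7.04 at day 15, highest on the array of tumor 303. The second Tagln probe, also too dim, read 6.45, 6.47 and 6.86 at day 10 and 7.26, 6.92 and 7.38 at day 15. An Acta2 probe not above background in Cy3 read 6.06, 6.08 and 6.11, then 6.15, 6.33 and 6.43. Of the remaining dim probes, another Acta2 probe was lower on every day 15 array, and the others overlapped. What part this reference signal had in the differences between the days was not tested.

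**Figure D3:**
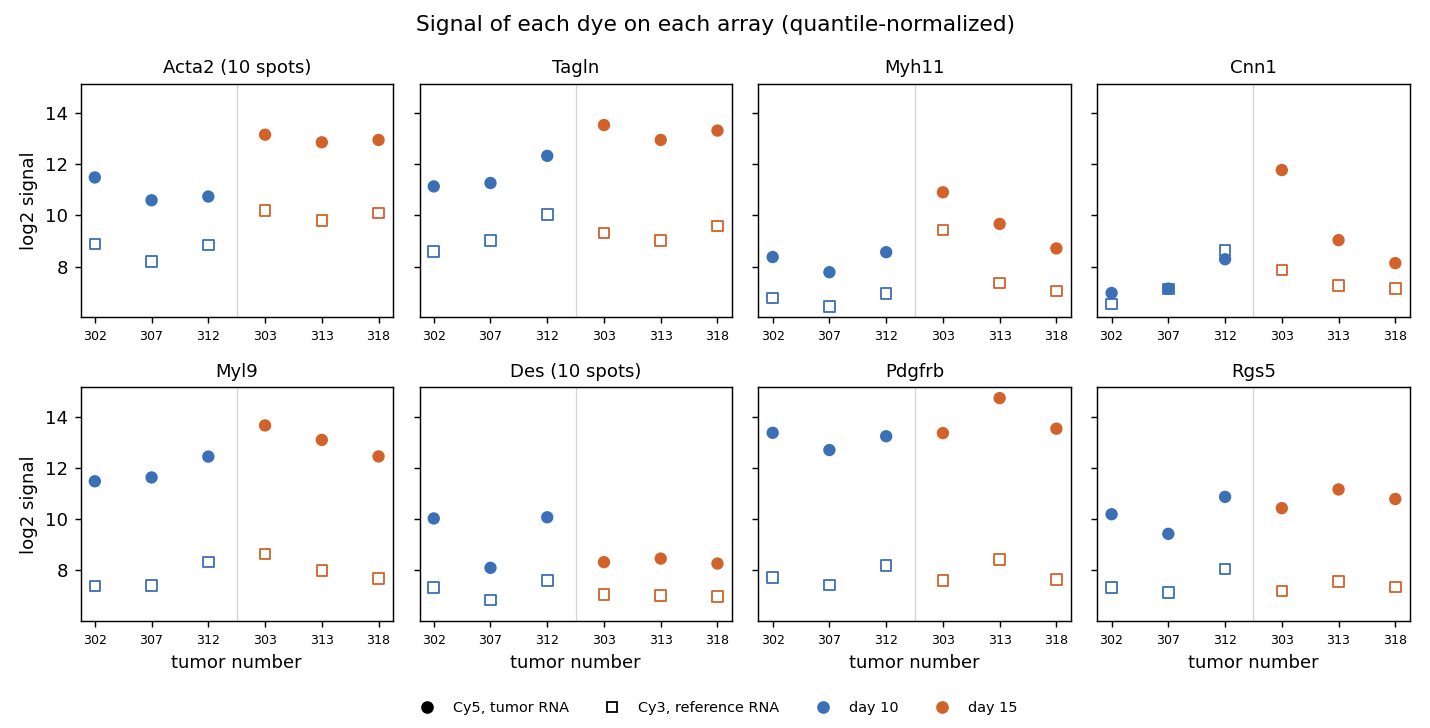
Quantile-normalized log2 signal of tumor RNA (Cy5, filled circles) and reference RNA (Cy3, open squares) on each of the 6 arrays for 8 of the genes, with day 10 in blue and day 15 in orange. Acta2 (10 spots) is higher in both dyes on the day 15 arrays, while Tagln, by its brightest probe, differs by 1.69 in Cy5 and 0.09 in Cy3.

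Des had a lower mean at day 15, reading 3.04, 1.13 and 2.46 among the day 10 tumors but 1.24, 1.36 and 1.20 among those of day 15. Tumors 302 and 312 stood above the other four, tumor 307 was lowest of all, and the difference of -0.94 ± 0.46 did not pass (SE; limma, unadjusted p = 0.0844). It was -0.52 without tumor 302 (limma, unadjusted p = 0.243) and -1.48 without tumor 307 (limma, unadjusted p = 0.00103, adjusted p = 0.922). Des is also a main filament of skeletal muscle. Markers of striated muscle, 13 genes such as the myosins Myh1 and Myh4 and the troponin Tnnc2, had median ratios of 3.89, 2.46 and 3.52 in the day 10 tumors and 0.00, 0.04 and -0.03 in the day 15 tumors. Of these 13, 5 were called lower at day 15, beside 0.0569% of all genes called in either direction. Only 1 of the 13, the cardiac actin Actc1, was higher, by 0.84. The 5 called were well above background in Cy5 on only 3 to 5 arrays. They could meet the filter of 3 arrays through the day 10 tumors alone, where they were high. Both these calls and the size of the differences are therefore less secure. Among all genes of the array above background on all 6 arrays, 0 were called lower. A gene that falls to background at day 15 cannot be in that set. The summed Cy5 signal of the 13 striated muscle markers was 209219, 27110 and 167735 at day 10 and 2527, 2902 and 3329 at day 15. Tumors with the highest sums, 302 and 312, were those highest in Des, and what part muscle tissue had in the Des values was not tested.

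Markers of other cell types of the tumors were set beside these genes. Of all genes tested, 55% had a higher mean at day 15, and 2.44% were higher at an unadjusted p under 0.05 (limma). All 12 endothelial markers had a higher mean at day 15, with a median difference of 0.69 and per-tumor medians that were 3.41, 2.86 and 2.57 at day 10 against 4.06, 4.25 and 3.59 at day 15. None of the 12 was called (limma), and 8 had an unadjusted p under 0.05. Of 11 fibroblast markers 10 were higher, 0 called and 4 at an unadjusted p under 0.05, with a median of 0.52 and tumor medians of 4.91 to 5.27 at day 10 and 5.40 to 6.18 at day 15. All 8 macrophage markers were higher by a median of 0.16 with 0 at an unadjusted p under 0.05. All 6 tested adipocyte markers were higher by a median of 1.59, which rested on tumors 303 and 313. Adipocyte medians were 5.22 and 5.47 there, 0.87 in day 15 tumor 318, and 2.53, 2.86 and 0.55 in the day 10 tumors. Hepatoma markers had a median difference of -1.52, which rested on tumor 313. Their per-tumor medians were 2.47, 2.25 and 2.96 in tumors 302, 307 and 312, and 2.49, -2.31 and 3.10 in tumors 303, 313 and 318. By the loess ratio, tumor 313 was also the tumor highest in Pdgfrb, Rgs5, Cspg4 and Myh11. In the tumor channel alone this held for Pdgfrb and Rgs5 only. There Cspg4 was highest in tumor 312 (10.75 against 10.22 in 313) and Myh11 in tumor 303 (10.91 against 9.67). With the scanner's log ratio Myh11 was highest in tumor 307 (2.95 against 2.88) and Rgs5 in tumor 318 (4.198 against 4.181). Platelet markers were higher in 5 of 6, erythroid markers in 3 of 3 and skin epithelium markers in 3 of 3, with no call in any of them, and the skin genes Lor and Dsg3 were not above background in the tumors. What part the makeup of the tumors had in the mural genes was not tested.

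**Figure D4:**
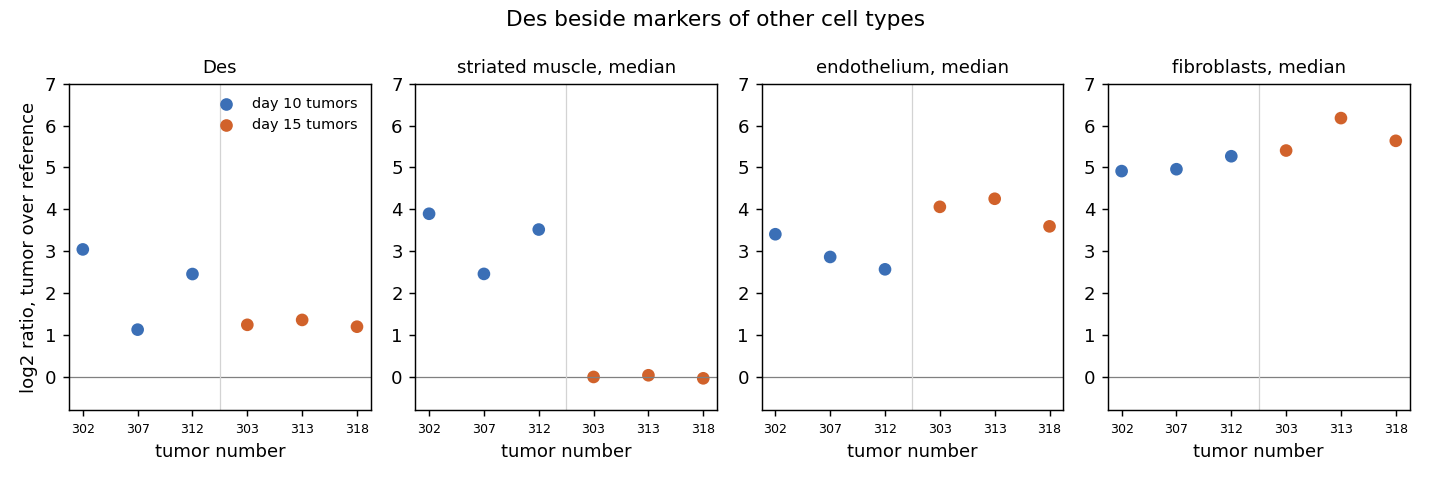
Log2 ratio of tumor over reference for Des and the median over the markers of striated muscle, endothelium and fibroblasts in each tumor (blue, day 10; orange, day 15). Striated muscle medians lie between 2.46 and 3.89 at day 10 and between -0.03 and 0.04 at day 15, and Des is high in the same tumors, 302 and 312; endothelial and fibroblast medians are higher in each day 15 tumor.

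Of 24 further contractile and actin-binding genes, 23 were tested between the days: 20 had a higher mean at day 15, 0 were called (limma), and at an unadjusted p under 0.05 there were 6 higher and 1 lower. Of all genes, 55% had a higher mean, and 2.44% were higher and 1.58% lower at that p. The median difference of the 23 was 0.14. Mylk, the myosin light chain kinase that activates Myl9, read 2.65, 2.12 and 2.69 at day 10 and 3.11, 3.89 and 3.12 at day 15, without overlap, a difference of 0.89 (limma, unadjusted p = 0.0162). Itga8, an integrin of smooth muscle, was higher by 0.73. Its signal was above background on only 3 arrays in Cy5 and 0 in Cy3, so this size is less secure. Against the reference 12 of the 23 were called higher and 2 lower, beside 25.5% and 9.77% of all genes. Tpm2 (tropomyosin 2) averaged 3.27 and Mylk 2.93. Synpo2 was called as well, without reference signal above background. Pln was not above background in the tumors.

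Among 15 tested regulators of mural cells, 12 were higher at day 15 (55% of all genes), with 0 called (limma) and a median of 0.28. At an unadjusted p under 0.05, 3 were higher (limma), beside 2.44% of all genes. Those 3 were the receptor Notch3, higher by 0.88, and the genes Heyl and Hey1, known targets of Notch, higher by 0.96 and 0.90. The Notch ligand gene Jag1, named after its value was seen, differed by 0.01 ± 0.30 (SE; limma, unadjusted p = 0.984). Notch3 read 2.63, 1.91 and 2.25 at day 10 and 2.89, 3.52 and 3.02 at day 15. Its groups did not overlap, and tumor 307 was lowest, as for Rgs5. Myocd, which encodes myocardin, was not well above background in Cy5. Against the reference 9 of the 15 were called higher and 2 lower, beside 25.5% and 9.77% of all genes. Notch3 averaged 2.70, while Hey1 and Heyl were called against a reference signal above background on 0 arrays, so no size is given.

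Of 8 tested ligands and signalling genes of PDGF, 7 had a higher mean at day 15, beside 55% of all genes. Of the 8, 0 were called (limma), 0 had an unadjusted p under 0.05, and the median was 0.20. Pdgfb, the endothelial ligand of Pdgfrb, was higher by 0.53 (limma, unadjusted p = 0.0746) and Pdgfa, a ligand mainly of the receptor Pdgfra, lower by 0.35. Against the reference 4 of 8 were called higher, beside 25.5% of all genes. The receptor Pdgfra averaged 3.48 and the ligand Pdgfc 2.20. Pdgfd was called as well, without reference signal above background.

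Other genes of pericytes were higher at day 15 in 11 of 11 (55% of all genes), with 0 called (limma) and a median of 0.68. At an unadjusted p under 0.05, 4 were higher (limma), beside 2.44% of all genes. Abcc9 and Kcnj8, which encode the subunits of the potassium channel of pericytes, were higher by 1.01 and 0.82. Abcc9 read 2.07, 1.49 and 1.60 at day 10 and 2.74, 2.83 and 2.62 at day 15, without overlap and with reference signal above background on 0 arrays (limma, unadjusted p = 0.00146, adjusted p = 0.497). Rgs4, a relative of Rgs5, was higher by 0.71 (limma, unadjusted p = 0.00264), with signal above background on 5 arrays in Cy5 and 0 in Cy3. Against the reference 10 of the 11 were called higher, beside 25.5% of all genes. Anpep (aminopeptidase N) averaged 4.40, Mcam 3.82 and the gap junction gene Gjc1 4.02, the last with reference signal above background on only 2 arrays. Angpt1 was not above background in the tumors.

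For the 3 genes that varied most over the tumors, the genes nearest in their centred pattern were sought among 10676 genes above background on all 6 arrays, by the root mean square difference over the 6 tumors. Nearest to Cnn1 were the immunoglobulin kappa variable genes Igkv4-70, Igkv4-55 and Igkv4-58, at 0.46, 0.56 and 0.61. Like Cnn1, they were highest in tumor 303 and next in 313: Igkv4-70 read 0.27, 0.46 and -0.03 at day 10 and 3.66, 2.36 and 0.90 at day 15. Such a shared order follows from how these genes were picked, among 10676 genes over 6 tumors. Nearest to Tagln were the clock gene Arntl at 0.17, with a probe inside the area of lost signal for tumor 312, the collectin Colec11 at 0.23 and Cd1d1 at 0.28. Nearest to Des were Mlf1 at 0.29, the sarcoplasmic calcium pump Atp2a1 of fast skeletal muscle at 0.30 and Synpo2l at 0.35.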

How the data were processed

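RNA of 6 tumors was measured on 6 Agilent 2-colour arrays, 1 per tumor; the number of arrays limits the precision. Per the file headers, the deposited scanner files were made with Agilent Feature Extraction 9.1.3.1 and hold the mean intensity of each spot and of its local background in each dye, not normalized. The log10 ratio in the deposited scanner files had been background-subtracted and dye-normalized by that software, and the value table deposited by the authors differed from it by 0 at every spot. Flags for signal well above background, saturation and outliers were used as deposited. Spots numbered 45018 per array, 1639 of them controls.

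In limma 3.58.1 under R 4.3.3, intensities were corrected with normexp (offset 50), log2 ratios were normalized by loess within each array, outlier and control spots were left out and spots of a probe averaged. A probe entered the comparison of the days if Cy5 was well above background on 3 or more arrays. It entered the comparison of tumor with reference, in which the mean of the 2 day means was set against 0, if either dye was above background on 3 or more. Tests were 2-sided with Benjamini-Hochberg adjustment over all probes; the second leaves out the reference's own spread. Probes of genes outside the 10 were named through a RefSeq table (GRCm38.p6): 23374 by accession, 6733 by symbol, 2919 by older symbol, and 8148 kept the file's name. The fits were tested on simulated data. The 10 genes, the related lists and the markers were chosen with earlier results of these data known. From each related list the 3 genes of smallest p between the days and the 3 of largest ratio against the reference were named, with the 3 nearest genes of each of the 3 most variable members (1 gene so chosen is not reported here); Myh1, Myh4, Tnnc2, Actc1 and Jag1 were named after their values were seen, and Pln, Myocd, Angpt1, Lor and Dsg3 because they were not above background. Alternatives were other background corrections and scalings, each dye alone, other filters on dim probes, the mean of all probes, array position as a block, the lost area left out, and each tumor left out.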

Additional observations from a re-analysis of the deposited data

How the results depend on the processing

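Under every alternative tried, no member was called between the days (limma; 3 to 7 were higher at an unadjusted p under 0.05), and the members' median difference stayed between 0.21 and 0.86. The count of members called against the reference was 7 to 9. Their median log2 ratio, 2.42, was 3.05 with the scanner's log ratio or the authors' value table, and the cause was not tested. Over probes above background on all 6 arrays it was 3.096, where Cnn1 was left out and 9 members remained. The 9 genes called between the days among all genes became 0 in the tumor channel alone (147 higher and 321 lower at an unadjusted p under 0.05), 1 above background on all 6 arrays and 4 with array position as a block; leaving out 1 tumor each gave 1 to 10, with 1 without tumor 302 or 312 and 4 without tumor 303. Signs turned in these cases: Acta2 between the days was 0.61 as the mean of all its probes, and 0.86 by its probe printed 10 times, 0.65 with the lost area left out, both readings chosen after seeing the data. After median centring without loess, Acta2 and Actg2 against the reference were -0.24 and -0.17, and Actg2 and Cspg4 between the days -0.12 and -0.014. In the tumor channel alone these were -0.072 and -0.074. Leaving out 1 tumor each, Cspg4 ranged from -0.10 to 0.47, negative without tumor 307 or 313 (-0.09), and Myh11 was -0.26 with the scanner's log ratio and the authors' value table. No paired analysis was possible because tumor numbers are not shared between the days. Members not above background in the reference have less secure ratios.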
